A study of Mus musculus with 2 samples.

Results

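The genes for UBR box ubiquitin ligases, for enzymes that make or modify protein N-termini, and for 1 protein that this route degrades were examined in testes with and without UBR2. They were taken by name: Ubr1, Ubr2, Ubr3, Ubr4 and Ubr7 as ligases, Ate1, Ntan1, Metap1 and Metap2 as enzymes, and Rgs5 as the substrate gene. These are 10 of the 12393 genes that the array read with probe sets of a single gene symbol, and 20 of the 20380 such probe sets, where a probe set is a group of short probes that gives 1 signal for a transcript. All 10 were bright enough to be compared, as were 8091 genes in all. The tissue was whole testis of 17 day old mice on a mixed 129SV and C57BL background, either wild type or UBR2-/-. Each genotype was measured on 1 Affymetrix 430A 2.0 array, for which the labels name 2 testes of different mice, from the same litter per the design text. The labels state neither whether their RNA was pooled nor which part of Ubr2 was deleted. With n = 1 array per genotype there is no replicate error, no test was made, and every difference describes these arrays.

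The N-degron pathway destroys proteins according to their first residue. In some proteins, RGS5 among them, methionine aminopeptidases uncover that residue by removing the initiator methionine. Amidases and an oxidation step can turn certain first residues into ones that accept arginine, and the arginyltransferase ATE1 adds the arginine. UBR1, UBR2 and UBR4 then bind the exposed residue through a zinc-holding fold, the UBR box, and mark the protein with ubiquitin for the proteasome. In mouse testis UBR2 is known for its need in male meiosis, and spermatocytes of mice without it are lost.

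All members lie on autosomes. The RefSeq promoter table (GRCm38.p6) held a window for each of the 10, and the 250 bases before the annotated start site were read. Both sequences printed here belong to the members with the lowest log2 ratios, Ubr2 and Rgs5, and capitals mark each CG pair. They are 250 bases long, 5′ to 3′, from chr17:47010533-47010782 on the minus strand for Ubr2 and chr1:169655251-169655500 on the plus strand for Rgs5.
Ubr2: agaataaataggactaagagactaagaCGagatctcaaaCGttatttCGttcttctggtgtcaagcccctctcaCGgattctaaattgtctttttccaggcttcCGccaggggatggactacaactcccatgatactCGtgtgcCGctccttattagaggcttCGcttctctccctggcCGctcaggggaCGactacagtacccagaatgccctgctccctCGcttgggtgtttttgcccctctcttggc
Rgs5: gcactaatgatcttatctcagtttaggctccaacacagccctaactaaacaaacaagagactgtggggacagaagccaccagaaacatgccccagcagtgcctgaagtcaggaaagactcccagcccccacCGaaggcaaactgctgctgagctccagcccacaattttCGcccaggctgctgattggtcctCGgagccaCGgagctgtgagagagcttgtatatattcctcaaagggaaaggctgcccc

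The Ubr2 window held 11 CG pairs and the Rgs5 window 4, against a median of 6 over all 32851 windows in the table. The other ligase windows were richer, with 16 for Ubr1, 16 for Ubr3, 28 for Ubr4 and 27 for Ubr7. Among the enzymes Ntan1 had 20 and Metap1 had 32, and the 2 windows of Ate1 had 4 and 25. The Metap2 window had 0, but its start site lies 5888 bases inside the annotated span of the gene, so it is not the outermost start of the gene. The start sites of the Ubr2, Ubr3, Ntan1 and Ubr1 windows also lie inside the span, by 354, 314, 417 and 45 bases, and those of Ate1 by 250 and 1039. Read on both strands, TATAAA was in none of the member windows and in 12.4% of all windows, and TGACGTCA, the full cyclic AMP response element, was in none and in 1.55%. CCAAT was in the Rgs5 window and not in that of Ubr2, and in 33.8% of all windows. These letters describe the windows and were not tied to the signals.

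The targeted gene was taken first. Ubr2 was read by 1 probe set, whose signal was 57.2 in wild type and 14.3 in UBR2-/- testis. The wild type signal was above the floor, set at the 40th percentile of each array, 24.4 in wild type and 24.7 in UBR2-/-, and the UBR2-/- signal was below it. Signals under the floor were raised to it before ratios were taken, so the Ubr2 difference is a bound, at least 2.32-fold lower without UBR2. The deposited signals themselves stood in a ratio of 4, but a value below the floor has no firm level. The labels do not place the probes relative to the deletion, which limits this signal as a check of the genotype.

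The other ligase genes kept close to their wild type signal. Ubr1, the closest relative of Ubr2 and a ligase of the same substrates, had signals of 202.8 (wild type) and 213.6 (UBR2-/-) in its brightest probe set and 84.4 and 87.3 in the other. Both probe sets were slightly brighter on the UBR2-/- array, with log2 ratios (UBR2-/- over wild type) of 0.07 and 0.05. The first equals the median of all compared genes, 0.07, and 4052 of the 8091 lay below it. Ubr1 therefore stood at the middle of the compared genes.

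Ubr3 codes for a ligase that has the UBR box but is not known to bind N-degrons. Its 1 probe set gave 176 and 180.9, a log2 ratio of 0.04. Ubr4, a very large protein that binds N-degrons and works with KCMF1, gave 329.5 and 383, a log2 ratio of 0.22 or 1.16-fold. Ubr7, which carries a PHD finger beside its UBR box, gave 239.6 and 266.2 in the brightest probe set and 84.6 and 84.1 in the other, log2 ratios of 0.15 and -0.01. Leaving out Ubr2, the ligase genes spanned only 0.18 on the log2 scale, from 0.04 to 0.22.

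For scale, the log2 ratios of paired probe sets, each pair from 1 gene, gave a robust SD of 1 probe set, which was 0.24 at low, 0.19 at middle and 0.13 at high signal. Pairs were graded by the signal of their dimmer probe set, and both probe sets had to be above the floor on both arrays. Since such pairs share their arrays, the SD does not hold the error between arrays or mice. Ubr1, Ubr3 and Ubr7 lay within 1 such SD of the median of all genes, and Ubr4 at 1.13 SD. Ubr2, taken at its bound, lay 5.36 SD below, on a scale built without signals under the floor.

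**Figure D1:**
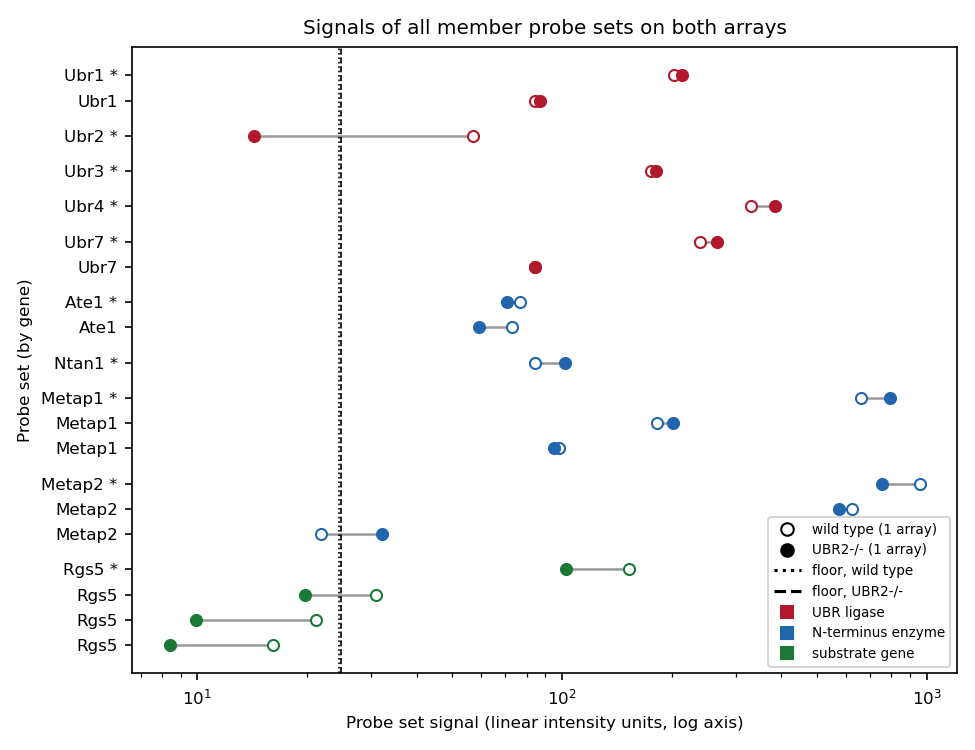
Signal of each of the 20 probe sets (rows, grouped by gene, the brightest of each gene starred) on the wild type array (open circles) and the UBR2-/- array (filled circles), on a log axis in linear intensity units. The Ubr2 signal goes from 57.2 to 14.3, across the floors (vertical lines), all 4 Rgs5 probe sets are lower on the UBR2-/- array, and the other ligase genes barely separate.

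The enzymes that act on protein N-termini went both ways. Ate1, the arginyltransferase, gave 76.9 and 70.8 in its brightest probe set and 73.1 and 59.3 in the other, log2 ratios of -0.12 and -0.30. Both were dimmer on the UBR2-/- array, and the first lay 0.81 SD below the median of all genes. Ntan1, the amidase that deamidates an N-terminal asparagine, gave 84.5 and 101.9 in its 1 probe set, a log2 ratio of 0.27 at 1.05 SD above that median.

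The methionine aminopeptidases lay on opposite sides. Metap1 gave 662.4 and 791.7 in its brightest probe set, a log2 ratio of 0.26. Its other probe sets gave 182.6 and 201.8 (log2 ratio 0.14) and 97.9 and 94.9 (log2 ratio -0.04). Metap2, the enzyme that fumagillin blocks, gave 956.5 and 753.7 in its brightest probe set, a log2 ratio of -0.34 or 1.27-fold lower. Its other bright probe set gave 625.9 and 574.7 (log2 ratio -0.12), and a dim one, which passed the floor only on the UBR2-/- array, gave 21.9 and 32.2.

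By the brightest probe sets Metap1 and Metap2 differed by 0.60 on the log2 scale, and Metap2 lay 3.31 SD below the median of all genes. That distance depended on the probe sets used. The brightest probe set of each can bind several transcripts by its name ending. Without such probe sets the log2 ratios were 0.14 and -0.12, and as means over probe sets they were 0.12 and -0.02. The mean for Metap2 takes in its dim probe set at 0.40, a bound, since that probe set was under the floor in wild type.

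Rgs5 was the member farthest below 0 after Ubr2. RGS5 restrains G protein signalling and is known as a gene of pericytes, the cells that wrap small vessels. Its protein begins with methionine and cysteine, and once the methionine is removed the cysteine can be oxidised and given an arginine by ATE1, which makes it a substrate of UBR1 and UBR2. The array reads its messenger RNA, not the protein.

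The brightest probe set of Rgs5 gave 152.4 in wild type and 102.8 in UBR2-/- testis, a log2 ratio of -0.57 or 1.48-fold lower. The next gave 31 and 19.7, above the floor only on the wild type array. The others gave 21.1 and 9.9, and 16.1 and 8.4, below the floor on both. All 4 were thus lower on the UBR2-/- array, though only 1 was above the floor on both. The brightest lay 3.45 SD below the median of all genes, and 644 of the 8091 compared genes (7.96%) had a lower log2 ratio.

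Cell type markers were set beside Rgs5. In whole tissue, fewer cells of a type and less RNA per cell cannot be told apart. Of 10 pericyte markers 5 were bright enough to be compared, with a median log2 ratio of 0.22. The median of all genes was exceeded by 4, including Des, which was under the floor in wild type and is also a myoid marker, and Cspg4 was under it at -0.22. Summed over all 10, their signal was 283.7 in wild type and 362.8 in UBR2-/- testis. The defining markers were dim: Pdgfrb gave 42.2 and 49.3, Notch3 34.6 and 47.3 and Cspg4 36 and 31, while Abcc9, Anpep, Higd1b and Cox4i2 were below the floor on both arrays and Kcnj8 in wild type.

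Peritubular myoid markers, contractile genes of the cells around the tubules, all lay above the all-gene median (8 of 8, median 0.51, summed signal 2610.7 and 3750.9). Of 7 compared endothelial markers 4 lay above it and 3 below (median 0.32). Kdr was under the floor in wild type and Pecam1 in UBR2-/- testis, so both ratios are bounds. Summed over all 8 listed endothelial markers, the signal was 231.7 and 292. Of the 4 compared Leydig cell markers 3 lay above the all-gene median (median 0.21, summed signal 956.7 and 979.4). These 3 were Star, Hsd3b1 and Cyp17a1, with log2 ratios of 0.80, 0.29 and 0.12. The other probe sets of Star had 0.11 and 0.84. The 1 below was the steroid synthesis gene Cyp11a1, which gave 329.4 and 218.3, a log2 ratio of -0.59. The part of these cells in the Rgs5 signal was not tested.

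**Figure D2:**
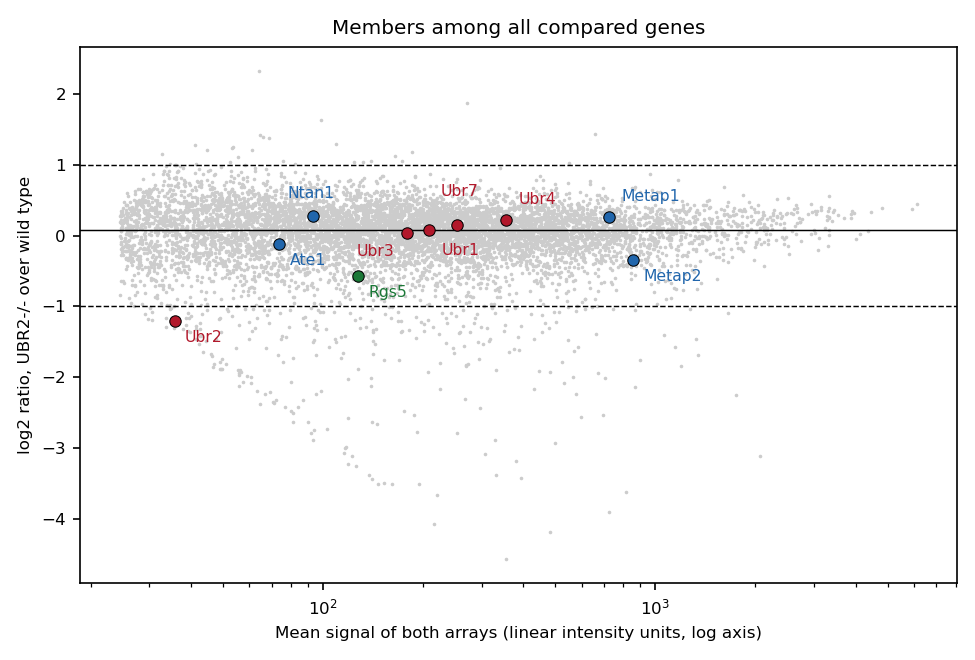
Each point is 1 of 8091 compared genes, with the mean signal of both arrays on a log horizontal axis and the log2 ratio of UBR2-/- over wild type on the vertical axis; solid line, median of all genes (0.07); dashed lines, 2-fold. Of the members (ligases red, enzymes blue, substrate gene green) only Ubr2, drawn at its bound, lies beyond 2-fold, and Rgs5 and Metap2 are the next lowest.

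Against all genes, the targeted member was the exception among the 10. At 2-fold, 1 of 10 members (Ubr2) was lower and 0 were higher, where 3.52% of all compared genes were lower and 0.346% were higher. At 1.5-fold the member counts were again 1 and 0, against 7.71% and 4.25% of all genes, with Rgs5 just inside at 1.48-fold. The 9 members other than Ubr2 ran from -0.57 to 0.27, a range that holds 66.3% of all compared genes. The members' own median was 0.06, and the median of all genes split them into 5 and 5.

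The ligases were then set against the N-terminus enzymes. The median log2 ratio was 0.07 over the 5 ligase genes and 0.07 over the 4 enzyme genes, a difference of 0.006. Without Ubr2 the ligase median was 0.11 and the difference 0.04; no error can be given for either difference. The 4 ligases other than Ubr2 spanned 0.18 and the 4 enzymes 0.61, with Metap2 at the lower end and Ntan1 at the upper, and this was not tested. Without probe sets that can bind several transcripts the enzymes spanned 0.39 and the ligases again 0.18.

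**Figure D3:**
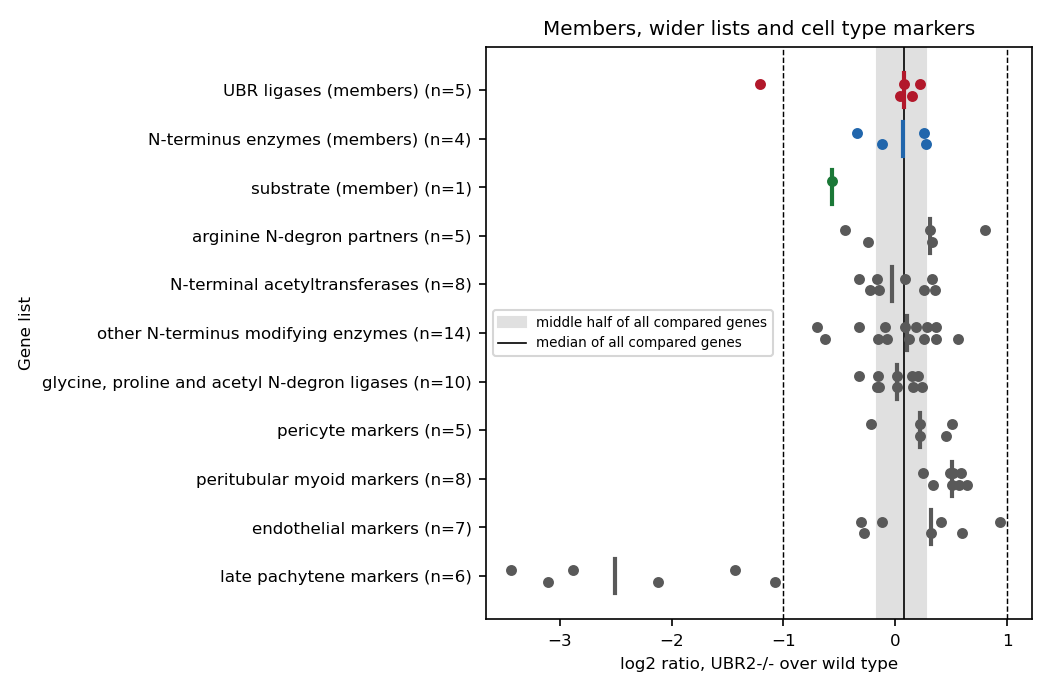
Log2 ratio of UBR2-/- over wild type for the compared genes of each list (points; short bars, list medians; n, genes compared), with the median (line) and the middle quartiles (grey band, -0.17 to 0.28) of all compared genes and dashed lines at 2-fold. The ligases other than Ubr2 sit inside the grey band, the N-terminus enzymes stay within 2-fold, and the late pachytene markers are all beyond 2-fold lower. Of these markers 3 are drawn at their bound.

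Partners of the arginine branch were read next. Of the 9 listed, 5 were compared and 0 of these reached 2-fold. Few genes did so: 3.52% of all compared genes were lower and 0.346% higher, so this count does not set the list apart. The list median was 0.31, with 3 genes over the median of all genes and 2 under it. Ube2a and Ube2b code for near-identical ubiquitin-conjugating enzymes that pass ubiquitin to UBR2. The X-linked Ube2a gave 184.2 and 320.2, a log2 ratio of 0.80, with 0.94 in its other probe set. The autosomal Ube2b gave 1032.7 and 873, a log2 ratio of -0.24, with -0.21 in its other probe set. In each gene both probe sets took the same side, and the brightest differed by 1.04 on the log2 scale.

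Sqstm1, the autophagy receptor that also binds N-terminal arginine, had a log2 ratio of 0.31. Tex19.1, whose protein binds UBR2 in mouse germ cells, gave 274.7 and 344.6, a log2 ratio of 0.33. Kcmf1, the partner of UBR4, gave 632.1 and 463.8 (log2 ratio -0.45) in its brightest probe set, while its other compared probe sets had 0.28 and 0.46. Its probe sets disagreed in direction. Rgs4 and Rgs16, which share the cysteine degron of RGS5, were too dim to be compared, with 17.7 and 21.9 for Rgs4 and 7.9 and 2 for Rgs16. Fbxo11, named UBR6 but an F-box protein, gave 293.8 and 259, a log2 ratio of -0.18.

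Genes for N-terminal acetylation, the commonest change of a new N-terminus, stayed within 2-fold in 8 of 8 compared cases. Most genes did, with 3.52% of all compared genes lower and 0.346% higher by 2-fold. The list median was -0.03, with 4 genes on each side of the median of all genes. Naa15, the ribosome anchor of the NatA enzyme, gave 891.8 and 1064.4 (log2 ratio 0.26) in its brightest probe set, but the other 3 ranged from -0.19 to -0.01. Naa35, an auxiliary subunit of NatC, was dimmer on the UBR2-/- array in all 3 probe sets, from -0.31 to -0.16. Its catalytic partner Naa30 had 0.33. Naa40, which acetylates histones, had -0.33, and Naa60 of the Golgi had 0.35.

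Other enzymes of protein N-termini were likewise within 2-fold in 14 of 14 cases, with a median of 0.10. Beside this count, only 3.52% of all compared genes were lower and 0.346% higher by 2-fold. Dipeptidyl peptidases were the lowest and the highest of this list. Dpp8, a cytosolic one, gave 228.8 and 140.7, a log2 ratio of -0.70, with -0.96 in its other probe set, while Dpp7, a lysosomal one, gave 55.4 and 81.9, a log2 ratio of 0.56, with 0.55 in its other compared probe set. Ntmt1, which methylates N-termini, had -0.63. The mitochondrial methionine aminopeptidase gene Metap1d had -0.16, and the deformylase gene Pdf, which acts before it, had 0.08. The myristoyltransferase genes Nmt1 and Nmt2, which act on a glycine bared by methionine removal, had -0.32 and 0.25.

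Ligases that read other N-terminal residues, listed with their subunits, formed the tightest of these lists by brightest probe sets. The lists differ in size. All 10 compared genes lay within 2-fold, from -0.33 to 0.24, with a median of 0.02. Most genes lay within it, as 3.52% of all compared genes were lower and 0.346% higher. Zyg11b, which reads glycine, had 0.15. Gid4, which reads proline for the GID ligase, had -0.16 in its brightest probe set and 0.13 in the next. Its further compared probe sets ran from -0.27 to -0.15. The GID catalytic subunits Maea and Rmnd5a had 0.01 and 0.24. Marchf6, a ligase of the endoplasmic reticulum, had 0.20. Cnot4 had -0.15 in its brightest probe set, but its 5 probe sets ranged from -0.55 to 0.97.

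Germ cell markers differed beside these values. All 6 late pachytene markers were lower by 2-fold or more in UBR2-/- testis, with a summed signal of 5279.2 in wild type against 745. Over all compared genes 3.52% were at least 2-fold lower and 0.346% higher. Of the late pachytene markers 3 (Pgk2, Adam3 and Ccna1) were under the floor on the UBR2-/- array, so their ratios are bounds. Markers of earlier meiotic prophase lay within 2-fold in 6 of 6 cases, with a median of -0.04 and summed signals of 10942.1 and 10251.1. Of these 6, 5 were under the median of all genes, the lowest being the germ cell helicase gene Ddx4 with 1527.4 and 896.5 (log2 ratio -0.77). Sertoli cell markers had a median of 0.41 but ran from -1.23 to 0.58, and 1 of 7, the hormone gene Amh with 59.7 and 25.5, was beyond 2-fold lower. Spermatogonia markers had a median of 0.29 and leukocyte markers -0.02. The 6 markers of meiotic prophase, the 7 of Sertoli cells and the 4 readable ones of Leydig cells were above the floor on both arrays. Amh was only just so on the UBR2-/- array, at 25.5 against a floor of 24.7. The part of these cells in the members' values was not tested.

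**Figure D4:**
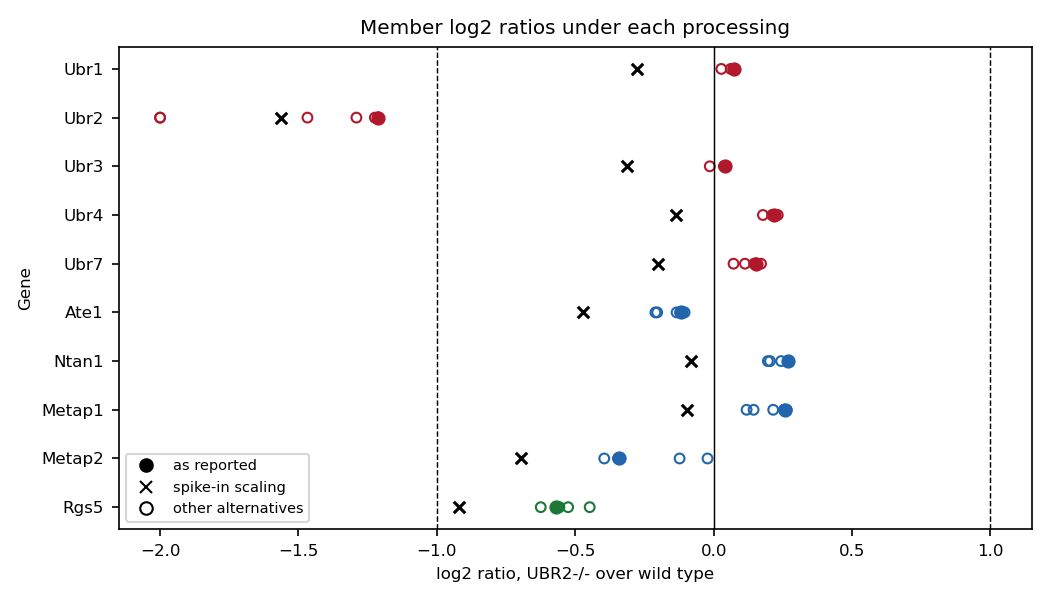
Log2 ratio of UBR2-/- over wild type for each member under the reported processing (filled), under scaling to spike-in controls (crosses) and under the other alternatives (open circles); dashed lines mark 2-fold. Ubr2, Rgs5, Ate1 and Metap2 stay below 0 wherever they are compared, while the crosses for Ubr1, Ubr3, Ubr4, Ubr7, Ntan1 and Metap1 fall below 0.

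The direction of the small differences depends on scaling. The median log2 ratio of the 42 bacterial and phage spike-in probe sets was 0.35, and scaling on them took the median of all genes to -0.28 and the log2 ratios of Ubr1, Ubr3, Ubr4, Ubr7, Ntan1 and Metap1 below 0, to between -0.31 and -0.08. Scalings shift all genes nearly alike, so the members' places relative to the median of all genes are largely fixed across them and carry no information on stability. Over all settings Ubr1 lay between -0.003 and 0.012 from that median. It was above the median under every scaling, and below it only with the 25th percentile floor and with the mean over probe sets.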

How the data were processed

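The authors deposited linear probe set intensity values, 1 column per array. The submitters' processing notes list MAS5, a program that reduces the brightness of a probe set to a single number, with no version; settings and detection calls were not used here. The 2% trimmed mean was 149.99 on each array, so the deposited scaling was kept. Of 22690 probe sets, 64 controls were left out, and only the 20380 with 1 symbol in the platform annotation were used. Ratios are log2 of UBR2-/- over wild type after signals under the 40th percentile of each array were raised to it. Each gene took its brightest probe set and was compared where its mean signal reached the mean floor. Python 3.11.15, pandas 2.3.3 and statsmodels 0.14.6 (lowess, span 0.3) were used, and the calculation was tested on simulated data. With 1 array per genotype the number of arrays limits the precision, and no p-value or likeness between gene profiles is given. The members and lists were chosen with earlier results of these data known. All members, and any compared member of a list, could be named; list genes without a single-symbol probe set were not analysed here. Protein sequences were not used here. Alternatives were other scalings, floors, probe set rules and fold thresholds.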

Additional observations from a re-analysis of the deposited data

How the results depend on the processing

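No paired analysis was possible because each genotype has 1 array. Of 216 values recomputed under 12 alternatives, 182 stayed within the stated spread and 34 moved further. The spread was 1 SD of a probe set, or 1.5 times for a count. Some values could not move, such as the mean over probe sets of a gene with 1 probe set. A turn of direction was scored only for members at least 2-fold different, which was Ubr2 alone, and Ubr2 kept its direction. Sign changes of smaller values under spike-in scaling were not scored as turns. Ubr2, at -1.21 with the reported processing, was -1.56 with spike-in scaling, -2.00 with the floor at the 25th percentile or with none, and -1.47 with a pseudocount of 10. With the floor at the 60th percentile Ubr2 and Ate1 were too dim to be compared, which left 0 members at least 2-fold lower. With the reported floor 0 were 3-fold lower, but the floor fixed this for Ubr2, whose bound there is 2.32-fold. Loess took Ubr3 to -0.01. Spike-in scaling took the list medians to -0.38 (N-terminal acetyltransferases), -0.044 (arginine partners), -0.34 (glycine, proline and acetyl N-degron ligases) and -0.25 (other N-terminus enzymes). The difference between ligase and enzyme medians ran from 0.002 to 0.062 in the 10 settings that hold Ubr2 and from -0.09 to 0.10 without Ubr2. Over all genes, 285 lower and 28 higher became 528 and 7 with spike-in scaling, 152 and 8 with the 60th percentile floor, 624 and 344 at 1.5-fold and 121 and 3 at 3-fold; the higher count became 132 with the 25th percentile floor and 17 with loess or a pseudocount. Signals near the floor limit Ubr2 and 3 of the 4 Rgs5 probe sets.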
